A study of Mus musculus with 10 samples.

Results

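Spermatogenic cells carry their own versions of several enzymes of glycolysis, and these germ-cell isozymes were examined with their somatic partners in juvenile mouse testes lacking MOV10. The rule named the genes and used no measured value, although earlier results of these data were known when it was written. They were 6 germ-cell isozymes, Pgk2, Gapdhs, Ldhc, Aldoart1, Eno4 and Pgam2, and 4 somatic partners, Pgk1, Gapdh, Ldha and Aldoa, which made 10 of the 55421 genes in the count files. MOV10 is an RNA helicase. The study sequenced polyadenylated RNA from testes collected at postnatal day 21 (P21), with 1 pair of testes in each of 3 wild type and 3 Mov10-/- libraries, and also MOV10-bound RNA from P21 testes by CLIP-seq in 4 libraries. The Mov10-/- mice, bred on a mixed genetic background, carried a global deletion of a block of Mov10 exons made with Actb-Cre, a Cre driven by the ubiquitous beta-actin promoter, so germ cells and somatic cells both lacked the gene. Wild type mice had no deletion, and the sources name no treatment of either group. The RNA-seq libraries held 5083407 to 9230540 reads on genes, and Mov10 itself was at 110 ± 12.0 CPM (read counts scaled to the total of each library after TMM normalisation) in wild type and 27.6 ± 1.39 CPM in Mov10-/- testes (SD, n = 3 libraries each), lower with an adjusted p of 0.00552 in edgeR's quasi-likelihood test.

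Glycolysis splits glucose into pyruvate and yields ATP, and lactate dehydrogenase interconverts pyruvate and lactate. Round spermatids and spermatocytes live largely on lactate supplied by Sertoli cells, whereas sperm depend on glycolysis along the flagellum to swim. Pgk1 lies on the X chromosome, which is silenced in pachytene spermatocytes, and its autosomal retrogene Pgk2 takes over during meiosis. Ldhc is switched on in early spermatocytes, while Gapdhs and the aldolase retrogenes Aldoart1 and Aldoart2 belong to spermatids. Pgam2 is the muscle form of phosphoglycerate mutase and is also the form found in late germ cells, and Eno4 encodes an enolase of the sperm flagellum. In a mouse of P21 the first wave of spermatogenesis has just produced round spermatids, so genes that start in these cells are read from a population that is still growing.

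The genes differ in structure. Pgk2 (ENSMUSG00000031233, chr17:40207015-40208640, minus strand) and Aldoart1 (ENSMUSG00000059343, chr4:72850583-72852634, minus strand) each consisted of 1 exon in the mm10 annotation, the form of a retrogene. Gapdhs (ENSMUSG00000061099, chr7:30729775-30743681, minus strand), Ldhc (ENSMUSG00000030851, chr7:46861203-46878142, plus strand), Eno4 (ENSMUSG00000048029, chr19:58943425-58971421, plus strand) and Pgam2 (ENSMUSG00000020475, chr11:5801640-5803733, minus strand) had introns. Ldhc lay 5575 bases beyond the end of Ldha on the same strand. To show what stands in front of the isozymes that the comparisons turn on, the 150 bases before the RefSeq start (GRCm38.p6) are given 5′ to 3′ on the gene's own strand for the meiotic genes Pgk2 and Ldhc, the spermatid gene Gapdhs and the somatic gene Ldha. Capitals mark a match on either strand to 1 of 4 short motifs, the core of the cAMP response element (TGACG), the GC box (GGGCGG), the CCAAT box (CCAAT) and a spaced palindrome like the full response element (TGANNTCA).
Pgk2, chr17:40208610-40208759: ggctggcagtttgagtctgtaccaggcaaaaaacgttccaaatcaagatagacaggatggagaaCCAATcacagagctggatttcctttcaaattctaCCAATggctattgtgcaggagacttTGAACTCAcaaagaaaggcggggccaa
Ldhc, chr7:46861113-46861262: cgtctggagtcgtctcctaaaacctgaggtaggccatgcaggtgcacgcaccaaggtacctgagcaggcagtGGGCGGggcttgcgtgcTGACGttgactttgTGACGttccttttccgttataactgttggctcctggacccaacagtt
Gapdhs, chr7:30743682-30743831: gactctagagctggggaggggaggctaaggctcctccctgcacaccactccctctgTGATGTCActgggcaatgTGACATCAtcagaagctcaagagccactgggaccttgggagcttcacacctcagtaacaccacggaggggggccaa
Ldha, chr7:46845654-46845803: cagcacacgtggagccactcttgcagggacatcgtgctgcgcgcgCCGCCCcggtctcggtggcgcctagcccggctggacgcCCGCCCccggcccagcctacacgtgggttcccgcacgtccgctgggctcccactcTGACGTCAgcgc
The Pgk2 window held 2 CCAAT boxes and 1 spaced palindrome, the Gapdhs window held 2 spaced palindromes, and the Ldhc window held 2 cores and 1 GC box. In Ldha both cores lay inside the single palindrome, which is counted under both motifs, and 2 GC boxes stood before it. Among the 32851 windows of the same length in the table, 13.3% held the core, 28.6% the GC box, 24.5% the CCAAT box and 8.37% the spaced palindrome. These matches are descriptions of letters and not of binding. The windows of Eno4, Pgam2, Gapdh and Aldoa held none of the 4 motifs, Pgk1 held 1 CCAAT box, and Aldoart1 was not in the table.

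The comparison between genotypes asked whether germ-cell isozymes were present at another level when MOV10 was missing. None of the 10 genes passed the test, for which a gene had to change by over 2-fold at an adjusted p under 0.05 (quasi-likelihood test of edgeR, Benjamini-Hochberg adjustment over 20240 genes). That test called 0.00494% of genes lower, namely Mov10 alone, and 0% higher. The number called depended on the test, since edgeR's exact test called 5.02% lower and 0.346% higher. The paper used edgeR at the same thresholds without naming the test, and reported far more genes, most of them lower. In bulk tissue, fewer cells of a type and less RNA per cell cannot be told apart. The 2 spermatid isozymes stood apart from the rest in size. Aldoart1 had a mean 42.6 ± 30.7 CPM in wild type and 7.72 ± 5.08 CPM in Mov10-/- testes, and Gapdhs 70.6 ± 44.2 and 20.2 ± 17.1 CPM (SD, n = 3). The median log2 fold change of Mov10-/- over wild type was -0.37 for the 6 germ-cell isozymes, 0.10 for the 4 somatic partners and 0.03 for all genes tested. At an unadjusted p under 0.05, 2 of the 10 genes were lower and 0 higher, beside 11.9% and 5.58% of all genes. In 1 gene, Aldoart1, every Mov10-/- library lay below every wild type library, beside 14.1% of all genes, and in 9 the genotypes overlapped. Over all genes, 26% had no overlap in either direction, so the counts were near those of the whole transcriptome and gave no result about the isozymes as a group. The labels do not tie the libraries to named animals, and the p-values measure the spread between these libraries.

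**Figure D1:**
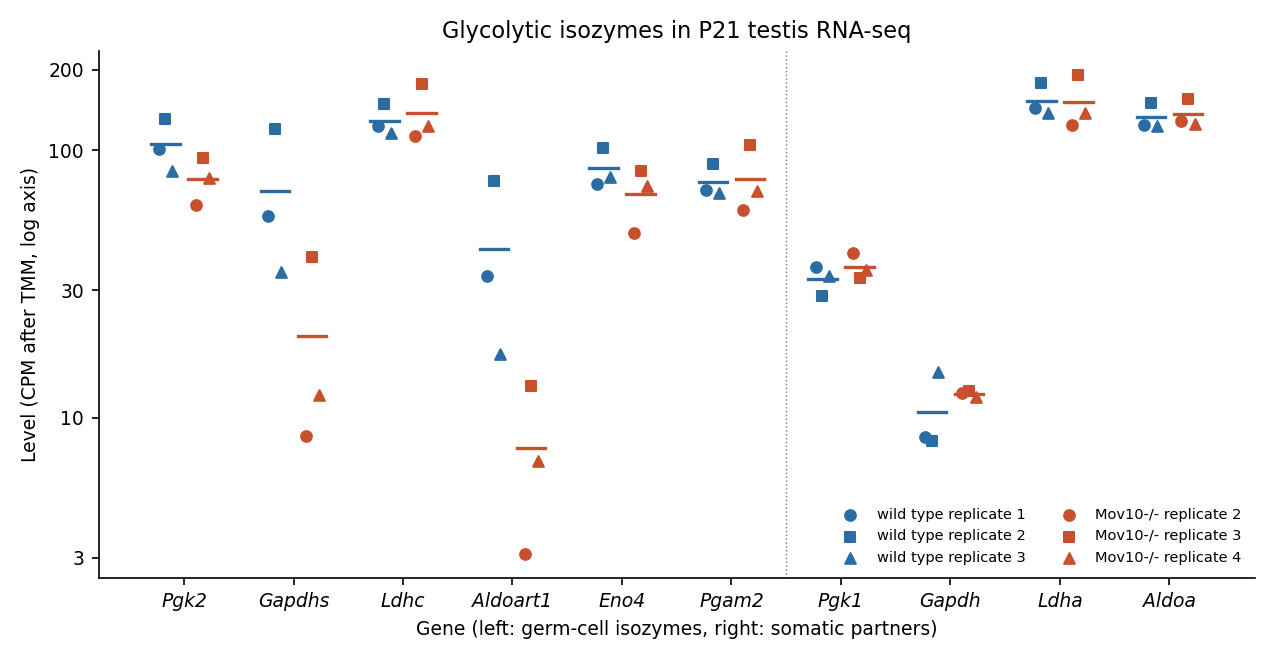
Level of each gene in each library, in CPM after TMM scaling on a log axis, with wild type in blue, Mov10-/- in orange, 1 symbol per library and a bar at the mean. Aldoart1 is the only gene of the 10 whose Mov10-/- points all lie below the wild type points, Gapdhs overlaps through Mov10-/- replicate 3, and the other genes overlap more widely.

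Aldoart1 encodes a germ-cell aldolase that splits fructose bisphosphate. It was at 33.8, 76.7 and 17.3 CPM in wild type replicates 1, 2 and 3 and at 3.10, 13.2 and 6.91 CPM in Mov10-/- replicates 2, 3 and 4. The lowest wild type library was above the highest Mov10-/- library, and the wild type libraries themselves spread widely. The log2 fold change was -2.50 with a standard error of 0.65 and an adjusted p of 0.150 in edgeR's quasi-likelihood test. The 95% interval ran from -4.01 to -0.98. In 2 other tests of the same counts Aldoart1 passed both thresholds, with a log2 fold change of -2.51 and an adjusted p of 0.00219 in DESeq2 and of -2.47 and 0.00919 in edgeR's exact test. DESeq2 called 4.88% of all genes lower and 0.252% higher, and the exact test 5.02% and 0.346%, so the call of Aldoart1 came with many others. Leaving out wild type replicate 2, its highest library, brought the log2 fold change to -1.76, and leaving out Mov10-/- replicate 3 brought it to -3.08. The sister retrogene Aldoart2 (chr12:55565239-55566896) had the same order, with 47.9, 111 and 36.1 CPM in wild type and 6.95, 29.4 and 14.4 CPM in Mov10-/- libraries, and a log2 fold change of -1.97 (adjusted p = 0.167, quasi-likelihood test). Of the 50-base windows of the Aldoart1 transcript, 5.80% also occurred in another gene, mostly Aldoa, and 0.311% of those of Aldoart2, so reads of the retrogenes and of Aldoa could be told apart over most of their length.

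Gapdhs encodes the sperm form of glyceraldehyde-3-phosphate dehydrogenase, which is anchored to the fibrous sheath of the flagellum. Its level was 56.8, 120 and 35.0 CPM in wild type replicates 1, 2 and 3 and 8.56, 39.9 and 12.2 CPM in Mov10-/- replicates 2, 3 and 4. Mov10-/- replicate 3 lay above wild type replicate 3, and the other 2 Mov10-/- libraries lay below all wild type libraries. The log2 fold change was -1.84 with a standard error of 0.64 (adjusted p = 0.206, quasi-likelihood test), and its 95% interval ran from -3.32 to -0.37. The value depended on single libraries and went from -1.22 without wild type replicate 2 to -2.76 without Mov10-/- replicate 3. DESeq2 and the exact test did not call it either, with adjusted p of 0.19 and 0.0698.

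Pgk2, the autosomal phosphoglycerate kinase of meiotic and later germ cells, was at 101, 131 and 83.7 CPM in wild type and at 62.2, 93.7 and 78.8 CPM in Mov10-/- libraries. The Mov10-/- values were in the lower part of the range and overlapped the wild type values. The log2 fold change was -0.43 with a standard error of 0.20 and an adjusted p of 0.320 (quasi-likelihood test), and the 95% interval ran from -0.90 to 0.04. Leaving out wild type replicate 2 gave -0.24 and leaving out Mov10-/- replicate 2 gave -0.29. Eno4, which encodes a flagellar enolase, was at 75.0, 102 and 79.6 CPM in wild type and 49.0, 83.9 and 73.2 CPM in Mov10-/- libraries. These values overlapped as well, with a log2 fold change of -0.32 ± 0.21 (SE, adjusted p = 0.470). The value was -0.12 after leaving out Mov10-/- replicate 2, -0.17 after leaving out wild type replicate 2 and -0.48 after leaving out Mov10-/- replicate 3.

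Ldhc, the lactate dehydrogenase subunit of germ cells, had overlapping levels in the genotypes. It was at 123, 149 and 115 CPM in wild type and at 113, 176 and 123 CPM in Mov10-/- libraries, with the highest value in Mov10-/- replicate 3. The log2 fold change was 0.09 with a standard error of 0.18 (adjusted p = 0.826), and the 95% interval ran from -0.33 to 0.51. With 0.542 to 0.687 reads per base of exon, Ldhc lay in the range where read counts were compressed between libraries of different depth, as described with the levels per length, so this interval does not bound the change in its RNA. Pgam2 was at 71.1, 88.5 and 69.3 CPM in wild type and at 59.7, 104 and 70.6 CPM in Mov10-/- libraries. Here too Mov10-/- replicate 3 was the highest library, and the log2 fold change was 0.03 ± 0.21 (SE, adjusted p = 0.952, 95% interval -0.46 to 0.52). Pgam2 had 0.573 to 0.769 reads per base of exon, so its interval has the same limit as that of Ldhc.

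The somatic partners overlapped between genotypes without exception. Ldha was at 143, 178 and 138 CPM in wild type and at 125, 191 and 138 CPM in Mov10-/- libraries, a log2 fold change of -0.02 with a 95% interval from -0.43 to 0.39. Aldoa was at 124, 151 and 123 CPM against 129, 156 and 125 CPM, a log2 fold change of 0.04 with an interval from -0.25 to 0.33. In both genes wild type replicate 2 and Mov10-/- replicate 3 were the highest of their group, as in Ldhc and Pgam2. Per base of the principal transcript Ldha had 0.527 to 0.734 and Aldoa 0.501 to 0.760 reads, so their intervals may carry the same limit. The X-linked Pgk1 was at 36.5, 28.5 and 33.9 CPM in wild type and at 41.2, 33.3 and 35.6 CPM in Mov10-/- libraries, a log2 fold change of 0.15 with an interval from -0.23 to 0.54. Gapdh, often used as a loading control, had few reads for its name, at 8.48, 8.22 and 14.8 CPM against 12.4, 12.5 and 12.0 CPM, and its log2 fold change was 0.22 with an interval from -0.48 to 0.93. It was 0.08 after wild type replicate 1 or replicate 2 was left out and 0.55 after wild type replicate 3 was left out, and that of Pgk1 was 0.07 and 0.06 after wild type or Mov10-/- replicate 2 was left out. Many processed pseudogenes share the Gapdh sequence, and 82.5% of the 50-base windows of its transcript occurred in at least 1 of 222 other genes, against 68.0% for Pgk1, 17.1% for Ldha, 13.9% for Aldoa and 0% for Pgk2, Ldhc and Pgam2. Reads that align to several places were not counted, so the levels of Gapdh and Pgk1 are uncertain. The annotation lists a second gene with the symbol Aldoa, and with its reads added to those of Aldoa the log2 ratio of mean CPM was 0.01.

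Each germ-cell isozyme was then set against its somatic partner within the same library, as a ratio of reads per kilobase of exon. This removes the scaling of the library. It does not remove the compression of genes with many reads per base, described with the levels per length. Pgam1 and Eno1 served as partners of Pgam2 and Eno4. The Aldoart1 to Aldoa ratio was 0.387, 0.723 and 0.199 in wild type and 0.0341, 0.120 and 0.0784 in Mov10-/- libraries, so Aldoart1 was below Aldoa per length in each library and every Mov10-/- library was below every wild type library. The difference was -2.48 on the log2 scale. The Gapdhs to Gapdh ratio was 17.2, 37.5 and 6.06 against 1.77, 8.16 and 2.62, a difference of -2.23 with overlap. The Pgk2 to Pgk1 ratio was 3.81, 6.34 and 3.40 against 2.08, 3.88 and 3.06, a difference of -0.58 with overlap, which became -0.31 with wild type replicate 2 left out and -0.34 with Mov10-/- replicate 2 left out. These 2 ratios rest on partners whose sequence is largely shared with other genes, as it is for Eno1 (72.2% of windows) and Pgam1 (41.5%). Their size has no absolute meaning, and the difference between genotypes assumes that an equal share of reads was lost in each library.

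The lactate dehydrogenase pair gave the tightest ratio. Ldhc over Ldha was 1.80, 1.75 and 1.75 in wild type and 1.89, 1.93 and 1.87 in Mov10-/- libraries, with every Mov10-/- library above every wild type library by a small margin. The difference was 0.10 on the log2 scale beside an SD of 0.02 in each genotype. Read counts of Ldhc, and perhaps of Ldha, were compressed between libraries, so this SD may understate the spread of the ratio in RNA. The difference was 0.03 when reads were corrected for filled positions as described with the levels per length. That correction took the full exon length, by which Ldha counts as less filled than Ldhc, so the smaller value depends on this choice. Eno4 over Eno1 was 2.15, 1.92 and 1.74 against 1.07, 1.47 and 1.59, again without overlap, a difference of -0.51. Pgam2 over Pgam1 was 8.24, 11.7 and 7.89 against 5.62, 9.57 and 7.71, a difference of -0.29 with overlap. This difference was -0.088 after leaving out Mov10-/- replicate 2, -0.11 after leaving out wild type replicate 2 and -0.47 after leaving out Mov10-/- replicate 3. An exact two-sided permutation test of 3 libraries against 3 cannot give a p under 0.1, and that smallest value was reached by the Aldoart1, Ldhc and Eno4 pairs (adjusted p = 0.2 over the 6 pairs). The Gapdhs, Pgk2 and Pgam2 pairs had p of 0.2, 0.3 and 0.4 in the same permutation test.

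**Figure D2:**
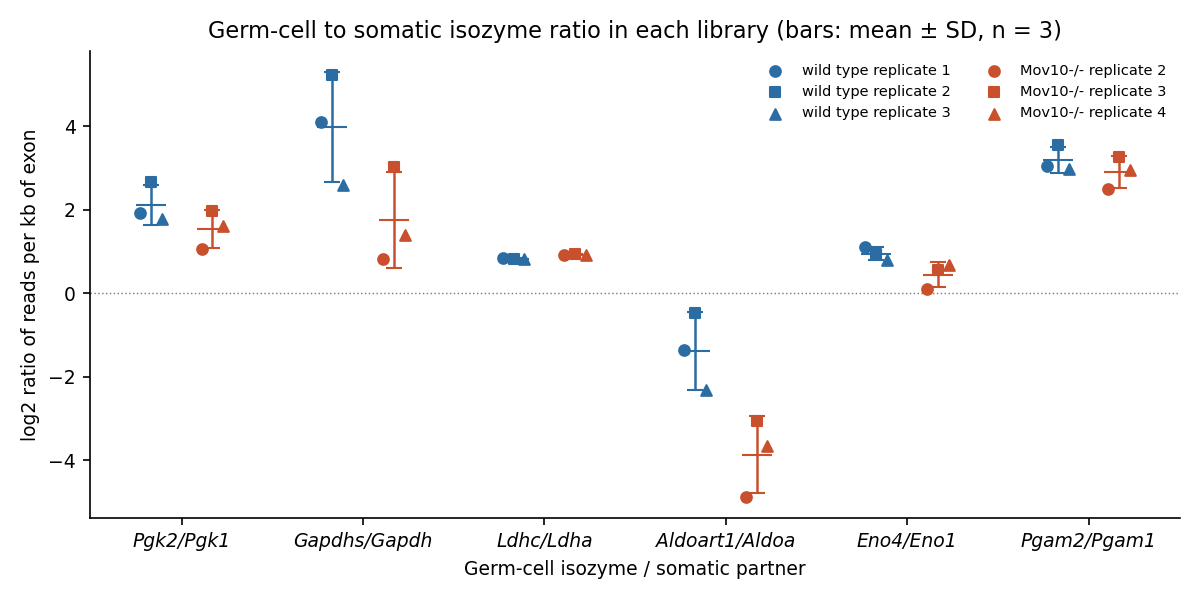
Germ-cell over somatic isozyme in each library as the log2 ratio of reads per kilobase of exon, with wild type in blue, Mov10-/- in orange and bars at the mean with the SD (n = 3). The ratio of Ldhc to Ldha hardly varies between libraries, while those of Gapdhs to Gapdh and Aldoart1 to Aldoa spread over several log2 units within each genotype and lie lower in Mov10-/- libraries.

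The germ-cell isozymes were also compared with each other. Set against Ldhc in the same library, Pgk2, Gapdhs and Aldoart1 were each lower in all 3 Mov10-/- libraries than in all 3 wild type libraries, with differences of -0.49, -2.02 and -2.51 on the log2 scale. The exact permutation p was 0.1 for each (adjusted p = 0.133), the smallest the design allows, and these pairs were chosen after the values were seen. Gapdhs over Aldoart1 differed by 0.49 with overlap between genotypes (exact permutation p = 0.2). For Gapdhs and Aldoart1 the libraries within a genotype also differed in the same order, highest in wild type replicate 2 and lowest in Mov10-/- replicate 2.

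**Figure D3:**
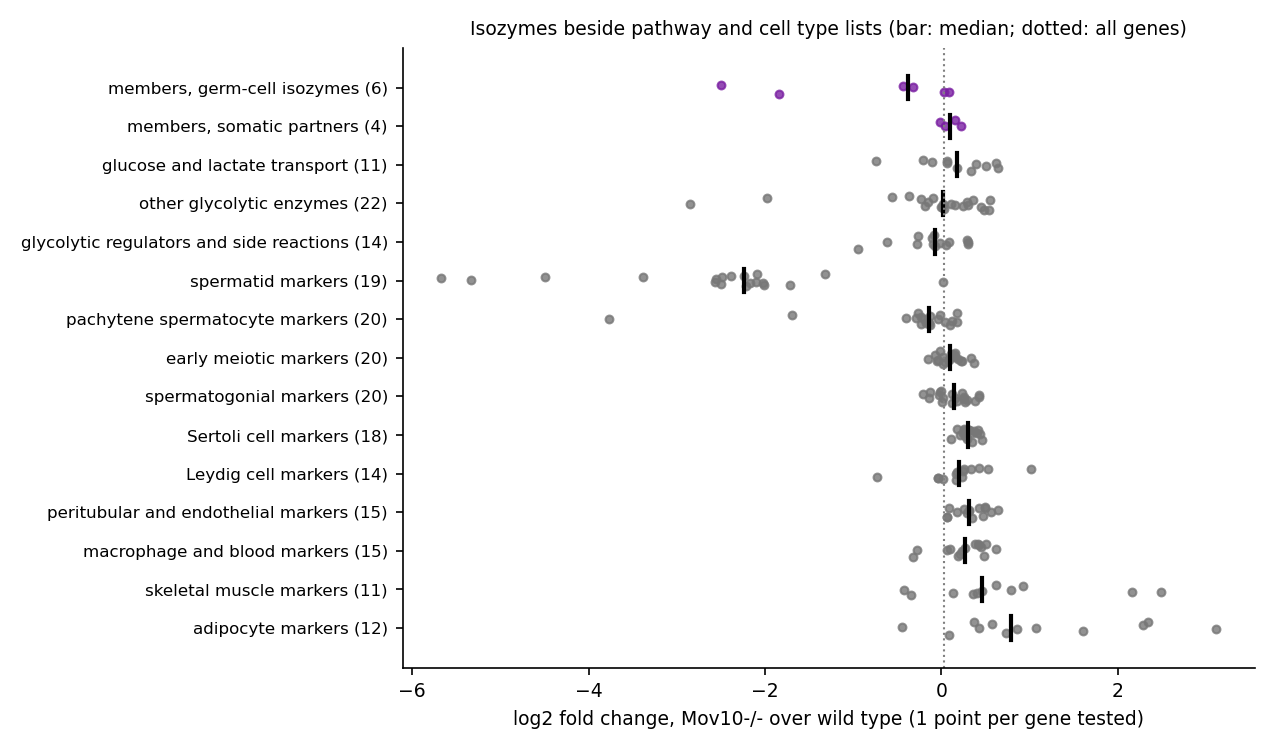
Log2 fold change of Mov10-/- over wild type for every tested gene of the isozyme lists (purple), the other pathway lists and the cell type lists (grey), with a bar at the median of the list and a dotted line at the median of all genes. Aldoart1 and Gapdhs lie among the spermatid markers, whose median is -2.24, and the other isozymes lie near 0, where the pachytene markers have their median.

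Levels of cell type markers are given here beside those of the isozymes. Of 20 spermatid markers 19 were tested, with a median log2 fold change of -2.24. In 12 every Mov10-/- library was below every wild type library, beside 14.1% of all genes. Their summed level was 564 to 1494 RPM (the same unit without TMM) in wild type and 347 to 618 RPM in Mov10-/- libraries, and no marker of the list was at 0 in all libraries. In each Mov10-/- library most of this sum came from Odf2, the 1 tested marker with a log2 fold change above 0 (0.02). Odf2 was at 319, 386 and 297 CPM in wild type and 274, 427 and 317 CPM in Mov10-/- libraries. The sum there therefore says little about the other markers. The median of the list, as log2(CPM + 1) relative to each gene's own mean, was 0.84, 2.18 and 0.16 in wild type replicates 1, 2 and 3 and -1.76, -0.14 and -1.21 in Mov10-/- replicates 2, 3 and 4. On the same scale Aldoart1 was at 1.05, 2.21 and 0.12 and at -2.04, -0.25 and -1.09, and Gapdhs at 0.81, 1.87 and 0.12 and at -1.79, 0.31 and -1.32. Both isozymes thus shared the highest and the lowest library of the spermatid list. Aldoart1 kept the order of the list in every library, whereas Gapdhs was higher in Mov10-/- replicate 3 than in wild type replicate 3.

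**Figure D4:**
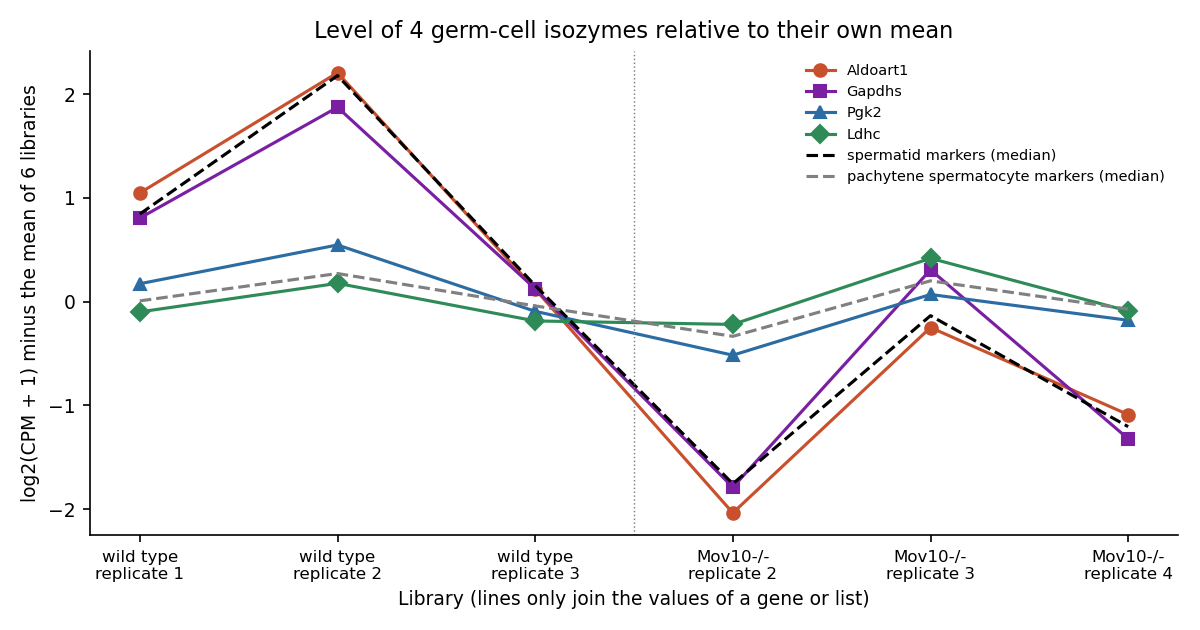
Level of 4 germ-cell isozymes in each library as log2(CPM + 1) relative to the gene's own mean over the 6 libraries (solid lines), with the median of 19 spermatid and 20 pachytene markers on the same scale (dashed lines). Aldoart1 and Gapdhs run with the spermatid list, except that Gapdhs lies above it in Mov10-/- replicate 3, and Pgk2 and Ldhc run close to the flatter pachytene list.

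The 20 pachytene markers had a median log2 fold change of -0.14, with 2 below and 0 above all wild type libraries. Those 2, Hspa1l at -3.76 and Spag6 at -1.69, ordered the libraries as the spermatid list did. The median relative level of the 20 markers was 0.01, 0.27 and -0.04 in wild type and -0.33, 0.20 and -0.07 in Mov10-/- libraries. Pgk2 stood at 0.17, 0.55 and -0.09 and at -0.52, 0.07 and -0.18 on this scale, and Ldhc at -0.10, 0.18 and -0.19 and at -0.22, 0.42 and -0.09. Early meiotic markers had a median of 0.10 and spermatogonial markers of 0.14. Somatic lists lay above the median of all genes, at 0.30 for Sertoli cells, with 9 of 18 markers above all wild type libraries and summed levels of 1380 to 1708 RPM in wild type and 1798 to 2088 RPM in Mov10-/- libraries. Peritubular and endothelial markers had a median of 0.31 with 8 of 15 above, Leydig cell markers 0.20 with 1 of 14, macrophage and blood markers 0.27 with 2 of 15, and adipocyte markers 0.79 with 6 of 12. Over all genes tested, 14.1% lay below and 11.9% above all wild type libraries. The counts of the pachytene, Leydig and macrophage lists were thus no result about these lists. Skeletal muscle, where Pgam2 is the main isozyme, had markers at 102 to 111 RPM in wild type and 120 to 176 RPM in Mov10-/- libraries, a median of 0.46, while Pgam2 itself was at 0.03. No marker of any list was called, and 1 Sertoli marker was at 0 in all libraries. The part of these cell types in the levels of the isozymes was not tested.

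The level of each isozyme per length gave an order in wild type testes. In RPKM, which is RPM divided by the exon length in kilobases, Pgam2 was at 90.0 ± 9.74, Ldhc at 80.9 ± 8.59 and Pgk2 at 64.0 ± 12.8 (SD, n = 3). Ldha at 45.8 ± 5.04, Aldoa at 45.2 ± 3.90 and Gapdhs at 43.1 ± 25.7 came next, then Eno4 at 33.0 ± 4.52, Aldoart1 at 20.4 ± 14.1, Pgk1 at 14.6 ± 2.20 and Gapdh at 2.53 ± 0.94. Of neighbours in this order, only Pgk2 and Ldha, and Pgk1 and Gapdh, had values that did not overlap over the 3 wild type libraries. In Mov10-/- libraries the mean levels were 92.2 for Pgam2, 86.2 for Ldhc, 47.8 for Pgk2, 46.7 for Aldoa, 45.4 for Ldha, 26.5 for Eno4, 16.3 for Pgk1, 12.3 for Gapdhs, 3.70 for Aldoart1 and 2.97 RPKM for Gapdh. The mean levels of Gapdhs and Aldoart1 stood below that of Pgk1 there and above it in wild type, but not in each library, since Aldoart1 was below Pgk1 in wild type replicate 3 and Gapdhs above it in Mov10-/- replicate 3, and the level of Pgk1 is uncertain. The order depended on the length used, because Ldha and Aldoa have long alternative exons. By the length of the principal transcript Ldhc was at 93.3, Pgam2 at 90.0, Aldoa at 87.0, Ldha at 85.9 and Pgk2 at 64.0 RPKM, so that the first 4 no longer differed beyond their spread.

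The most abundant isozymes had close to 1 read per base of exon, and few genes of any kind had more. In wild type libraries only 2 genes per library had more than 1 read per base of exon, in Mov10-/- libraries 0, and the gene with the most reads was a very long one, Dnah8 in 5 libraries and Dync1h1 in the other. Pgam2 reached 0.769, Ldhc 0.687, Pgk2 0.588 and Gapdhs 0.545 reads per base of exon in their highest library, whereas Aldoart1 reached 0.273, Pgk1 0.148 and Gapdh 0.0334. Between Mov10-/- replicates 3 and 4 the totals stood at a ratio of 0.633, yet the median ratio of reads went from 0.564 over 4927 genes with up to 0.1 reads per base to 0.774 over 185 genes above 0.5, among genes with at least 100 reads in wild type replicate 3, the library by which they were grouped. In step with this, Mov10-/- replicate 3, the shallowest library, had the highest CPM of Ldhc, Pgam2, Ldha and Aldoa. Whether reads at the same position had been collapsed before counting is not given in the sources used here, and the cause was not tested. Reads were also converted to the number that would be needed to fill as many positions by chance if each base could hold 1 read. The log2 fold change became -0.67 for Pgk2 (adjusted p = 0.21, quasi-likelihood test), -2.17 for Gapdhs, -2.64 for Aldoart1, -0.05 for Ldhc and -0.20 for Pgam2. Among the ratios, the difference became -0.81 for Pgk2 to Pgk1, -2.48 for Gapdhs to Gapdh and -2.54 for Aldoart1 to Aldoa. It became -0.58 for Eno4 to Eno1 and -0.54 for Pgam2 to Pgam1, while the Ldhc to Ldha difference shrank from 0.10 to 0.03. The conversion used the full exon length, 3310 bases for Ldha against 1766 in its principal transcript. By the principal transcript Ldha had 0.527 to 0.734 and Ldhc 0.625 to 0.793 reads per base. The shrinkage of that difference therefore depends on the length used.

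**Figure D5:**
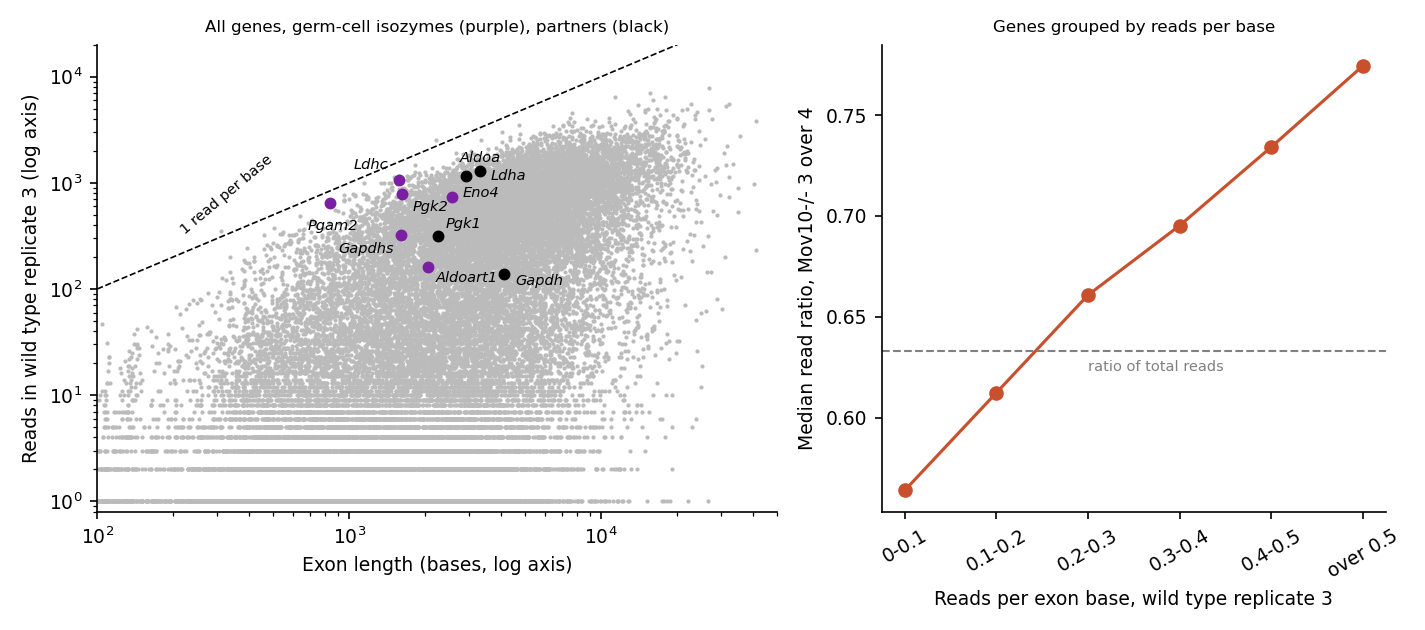
Left, reads in wild type replicate 3 against exon length for all genes (grey), germ-cell isozymes (purple) and somatic partners (black), both on log axes, with a dashed line at 1 read per base; Pgam2, Ldhc and Pgk2 lie just under the line. Right, median ratio of reads of Mov10-/- replicate 3 to replicate 4 in genes grouped by reads per base, which climbs from 0.564 to 0.774 across the ratio of total reads of 0.633 (dashed).

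Other genes of glucose use gave a frame for the isozymes. Of 51 genes for glucose and lactate transport, other glycolytic enzymes, regulators and side reactions, 47 were tested and 0 were called, with 4 lower and 2 higher at an unadjusted p under 0.05 and a median log2 fold change of 0.03. In 5 every Mov10-/- library was below all wild type libraries and in 6 above, beside 14.1% and 11.9% of all genes. After Aldoart2, the genes at 10 CPM or more with the most negative values were Gpd2, a mitochondrial glycerol phosphate dehydrogenase, at -0.94 (adjusted p = 0.253) and Slc16a7, the lactate and pyruvate importer MCT2, at -0.74 (adjusted p = 0.179). Slc16a7 was at 122, 198 and 122 CPM in wild type and 66.8, 95.0 and 102 CPM in Mov10-/- libraries, without overlap. Slc16a3, which encodes the lactate exporter MCT4, had the opposite order, with 51.0, 33.8 and 56.5 CPM in wild type and 78.4, 70.5 and 71.6 CPM in Mov10-/- libraries (0.64, adjusted p = 0.167). The glucose transporters Slc2a4 and Slc2a1 and the liver-type phosphofructokinase Pfkl were also without overlap, at 0.62, 0.40 and 0.49. Hk1, which encodes the hexokinase that also has a germ-cell form, was at -0.56 with overlap, Ldhd at 0.45 and Pfkp at -0.36.

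The genes with the profile most like Pgk2 over the 6 libraries, by the root mean square difference of log2 CPM centred per gene among 12326 protein-coding genes at 10 CPM or more, were Samd10, Cdkn3 and Ak8, at differences of 0.0406, 0.0516 and 0.0593. Those most like Ldhc were Ciao2b, Ppm1g and Psmc3, at 0.0238, 0.0245 and 0.0252. Gapdhs had no neighbour so near, the closest being Klhl10, 1700020L24Rik and Dusp13 at 0.104, 0.107 and 0.111, with log2 fold changes of -1.90, -1.81 and -2.04. All 6 libraries share their depth and cell makeup across genes, so the likeness is a description.

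CLIP-seq reads on the isozymes were few, as on most genes. The 4 libraries held 3404 to 4934 reads on genes and 15710 in all, of which 5 fell on the 10 genes. In these libraries 99.5% to 99.6% of reads were listed as not aligned, and 0.026% to 0.052% fell on genes. The depth given here is therefore that of the deposited counts and not that of sequencing. Gapdhs had 1, 0, 0 and 2 reads in replicates 1, 2, 3 and 5, Eno4 had 0, 0, 0 and 2, and the other 8 genes had 0 in every library. Of the 18779 genes over 1 RPM in every wild type RNA-seq library, 80.9% also had 0 CLIP-seq reads, so the count of isozymes without reads was near that of genes in general. A single read corresponded to 203 to 294 RPM, more than the wild type RNA-seq level of any of the 10 genes, and 0 reads in a library allowed up to 608 to 881 RPM (3 reads, counting error only). Binding at the level of their abundance was therefore not detectable at this depth for any single isozyme. Summed over the 10 genes, with replicates 1 to 3 averaged as 1 library because they agreed within sampling noise, the CLIP-seq level was 448 RPM and the wild type RNA-seq level 830 RPM, a ratio of 0.539 that came down to 0.102 without replicate 5. Such agreement does not show that they were 1 library, and the paper describes 4 libraries with different indexes. The averaging gave replicate 5, which held most of these reads, as much weight as replicates 1 to 3 together, and raised the ratio. Among the partners added for the ratios, Eno1 had 6, 3, 2 and 0 reads.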

How the data were processed

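RNA-seq and CLIP-seq libraries were made from P21 mouse testes. Per the labels and the study's methods, the authors trimmed reads, aligned them to mm10 with STAR and assigned them to Ensembl genes with htseq-count. The deposited files hold raw counts per gene (whole numbers) for each library, not normalised, and reads aligned to several places are listed apart. Whether duplicate positions were removed is not given in the sources used here.

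From these counts, 20240 of 55421 genes, those over 1 RPM in 3 or more RNA-seq libraries, were tested with edgeR 4.0.16 (TMM scaling, quasi-likelihood test, Benjamini-Hochberg adjustment), a call needing a change of over 2-fold and an adjusted p under 0.05. Alternatives used DESeq2 1.42.0, edgeR's exact test, limma 3.58.1 (voom), other scalings and filters, and 1 library left out. Ratios per library were tested with SciPy 1.17.1. GENCODE gene models on GRCm38 gave lengths and positions for 55240 genes. Named genes were the 10 isozymes, partners, up to 10 pathway genes by fold change at 10 CPM or more, and 3 genes by likeness for each of Pgk2, Ldhc and Gapdhs. Members and lists were chosen with earlier results of these data known. In simulated data with 200 genes changed 4-fold, the test recovered 191 and called 8 others. The simulation gave every gene the same spread between libraries, smaller than that of Aldoart1 and Gapdhs. It therefore does not show how often a change in such variable genes would be found. The RNA-seq library with the fewest reads, Mov10-/- replicate 3, also had 57.2% of its reads unaligned, beside 26.5% to 35.9% in the others, and its values carry the larger counting error.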

Additional observations from a re-analysis of the deposited data

Results flagged for a closer look

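Eno4 had 2 CLIP-seq reads in replicate 5 and 0 in replicates 1, 2 and 3, so that 1 library stood apart from the other 3. Chance flags about 1 in 20 groups of this size by this criterion, and the value is a count of 2 reads.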

How the results depend on the processing

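The ratio of each germ-cell isozyme to its partner kept its direction under every setting tried. The count of genes called lower, 1 by the quasi-likelihood test, was 988 with DESeq2, 1016 with the exact test, 3 with library totals as the scale, 5 without a filter and 0 to 1 with 1 library left out, being 0 without Mov10-/- replicate 3 or replicate 4. Genes called higher, 0 in the main test, were 51, 70, 3 and 5 in the same order and 1 with voom. Of the 10 isozymes 0 were called in the main test and 1, Aldoart1, was lower with DESeq2 and with the exact test. Same-numbered libraries of the 2 genotypes deviated in opposite ways (correlations -0.476 and -0.346). Libraries with different numbers gave correlations from -0.284 to 0.470. So few libraries, whose deviations are not independent, cannot decide whether the numbers pair the samples. A replicate block gave 148 lower and 36 higher genes over 6 libraries and 120 and 33 over the 4 libraries with shared numbers, with no isozyme called. Wild type replicate 1 and Mov10-/- replicate 4 share their number with no other RNA-seq library. They add nothing to the genotype difference under a block, so both fits compare the same 4 libraries. Signs of values near 0 turned. Ldhc went from -0.13 to 0.21 and Pgam2 from -0.23 to 0.19 with 1 library left out, both lowest without Mov10-/- replicate 3, Ldha from -0.22 to 0.11 and Aldoa from -0.062 to 0.14. With position-estimated reads, a setting added after seeing the data, Ldhc was at -0.053, Pgam2 at -0.20 and Aldoa at -0.0023, and with voom Pgam2 was at -0.036. The cause of these turns was not tested. The CLIP-seq to RNA-seq ratio of 0.539 was 0.102 without replicate 5, the single leave-out run for it, and 0.0805 relative to all aligned reads. Aldoart1 ranged from -3.08 to -1.76, Pgk2 from -0.58 to -0.24, Eno4 from -0.48 to -0.12, Gapdh from 0.08 to 0.55 and Pgk1 from 0.06 to 0.22 with 1 library left out, and among the ratios Gapdhs to Gapdh from -2.92 to -1.60, Aldoart1 to Aldoa from -2.95 to -1.98, Pgk2 to Pgk1 from -0.79 to -0.31, Eno4 to Eno1 from -0.62 to -0.34 and Pgam2 to Pgam1 from -0.47 to -0.09.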
